A study of Danio rerio with 24 samples.

Results

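The miRNAs described here are the 5 guide strands that in zebrafish are made from the same loci as let-7: dre-miR-99 and dre-miR-100, which form one family, and dre-miR-125a, dre-miR-125b and dre-miR-125c, which form another (dre, for Danio rerio, is left out from here on). They were found by name on both array types used in the study. On the custom Agilent arrays 5 of 231 names, with 11 probes, were members, and on the Exiqon LNA arrays 5 of 224 names, with 1 probe each. RNA came from whole zebrafish embryos of the wild-type TL strain that had been placed for 1 h, from 30 hours post-fertilization (hpf), in TCDD, a dioxin that binds and activates the aryl hydrocarbon receptor, or in the vehicle DMSO. The 4 groups were TCDD embryos at 60 hpf, DMSO embryos at 60 hpf, TCDD embryos at 36 hpf and DMSO embryos at 36 hpf, each with 3 biological replicates per array type, which gave 12 arrays on each. The labels name no transgene or mutation. The sources used here give neither the dose of TCDD nor whether equally titled samples on the array types came from the same RNA.

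The miR-125 family is the vertebrate counterpart of lin-4, which with let-7 times larval cell fates in the nematode Caenorhabditis elegans. In mammals miR-125 and let-7 both repress Lin28, an RNA-binding protein that blocks let-7 maturation, and miR-125b is abundant in the nervous system. The miR-99 and miR-100 family is related to miR-10, and its known targets in mammals include the growth kinase mTOR. A guide strand is the strand of the hairpin that is loaded into Argonaute. A miRNA made from several loci gives a single mature product, so the loci cannot be told apart on an array.

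The Agilent probes of miR-99 and miR-100, and those of miR-125b and miR-125c, differ by a single base, and the probes are shown because these pairs are compared below. The longest probe of each miRNA is given 5′ to 3′, with capitals at the bases in which it differs from its closest relative here (miR-99 against miR-100, miR-125b against miR-125c, and miR-125a against miR-125b).
miR-99 probe: cacaagAtcggatctacgg
miR-100 probe: cacaagTtcggatctacgg
miR-125a probe: cacaGgttAagggtct
miR-125b probe: tcacAagttagggtctc
miR-125c probe: tcacGagttagggtctc
The same capitals mark the matching bases of the miRNA stretch, the reverse complement of the probe written as RNA.
miR-99 stretch: ccguagauccgaUcuugug
miR-100 stretch: ccguagauccgaAcuugug
miR-125a stretch: agacccuUaacCugug
miR-125b stretch: gagacccuaacuUguga
miR-125c stretch: gagacccuaacuCguga
Counted from 1 at the 5′ end of the first-named probe, miR-99 and miR-100 differ by A7T over 19 bases, and miR-125b and miR-125c by A5G over 17 bases. The miR-125a and miR-125b probes differ by G5A, and 1 further base has no partner between them. The shorter Agilent probes of each miRNA lack bases at one end, with lengths of 18 bases for miR-99 and miR-100, 15 for miR-125a, 16 for miR-125b, and 15 and 16 for miR-125c. The sequences of the Exiqon probes and the full mature miRNAs with their seeds were not used here.

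The array's own map positions, on build danRer5, place every member beside a let-7, apart from a further miR-99 position on an unplaced contig. On chromosome 5 the miR-100 stretch lies at chr5:28066612-28066630, let-7a at chr5:28066920-28066939 and miR-125b at chr5:28075232-28075248. The same order recurs on chromosome 15, with miR-100 at chr15:21608386-21608404, let-7a at chr15:21608615-21608634 and miR-125b at chr15:21618433-21618449. A further locus on that chromosome holds miR-99 at chr15:30329546-30329564, let-7c at chr15:30329795-30329813 and miR-125c at chr15:30334934-30334949. On chromosome 21 miR-99, at chr21:34458509-34458527, and let-7c, at chr21:34460735-34460753, are followed by miR-125b at chr21:34479974-34479990. Unlike the others, miR-125a has no miR-99 or miR-100 beside it: it lies at chr16:23416893-23416908 with let-7d at chr16:23399815-23399833, and again at chr19:9129274-9129289 with let-7d at chr19:9115338-9115356. In the RefSeq annotation of the newer assembly GRCz12tu, used for names and neighbours only, all 10 precursor genes of the members had a let-7 precursor as a neighbour. There the miR-99 and miR-125c precursors of one locus lie within zgc:153372 and 1 miR-125a precursor lies within spaca6. A miR-100 and a miR-125b precursor lie within the protein-coding gene LOC101886227. Another miR-125b precursor lies within the long non-coding RNA gene LOC137496604.

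**Figure D1:**
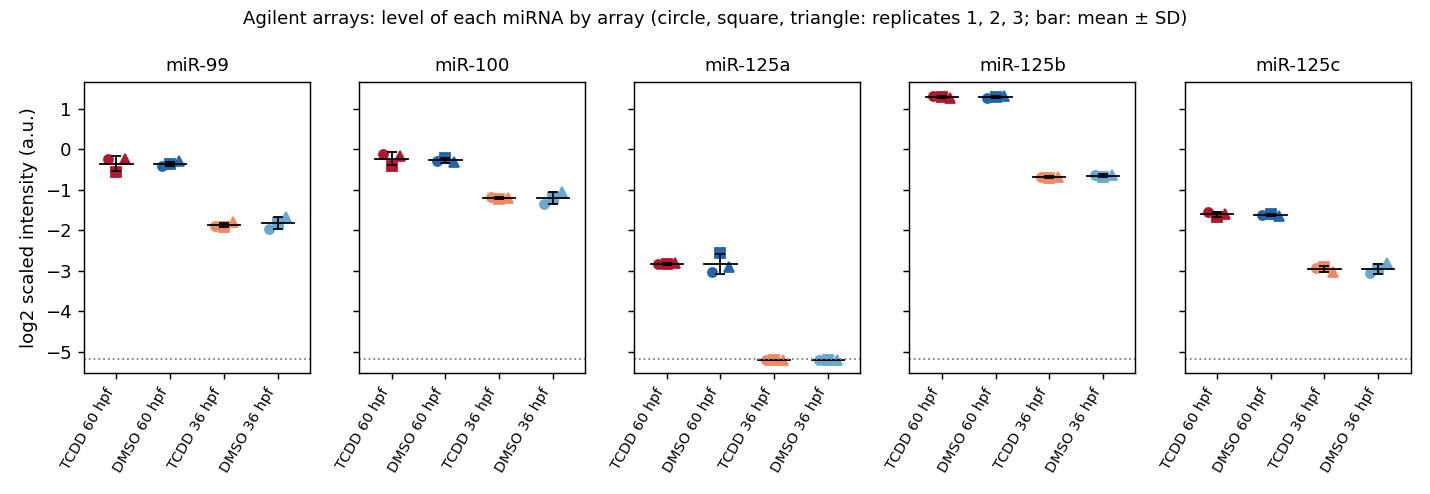
The plot of Agilent levels by array gives the log2 scaled intensity of the brightest probe of each miRNA on 12 arrays, with the mean and SD of each group of 3; the dotted line is the floor of the scale. All 5 miRNAs sit higher on the 60 hpf arrays than on the 36 hpf arrays, miR-125a sits on the floor at 36 hpf, and panels are not comparable in height because each has its own probe.

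The 5 miRNAs rose between 36 and 60 hpf on both array types, with and without TCDD, although for miR-125a the Agilent rise is only a bound against a 36 hpf level below background. On the Agilent arrays the rise in DMSO embryos was 1.91-fold for miR-100, 2.51-fold for miR-125c, 2.77-fold for miR-99 and 3.83-fold for miR-125b. For miR-125a it was at least 4.79-fold under the scaling used here. On the Exiqon arrays it was 1.43-fold for miR-99, 1.66-fold for miR-100, 2.76-fold for miR-125c, 2.79-fold for miR-125b and 3.73-fold for miR-125a. The miR-125 family thus held the members with the largest rise on each array type, and all 3 rose more than miR-99 and miR-100 on Exiqon, whereas on Agilent miR-99 rose more than miR-125c. The place of miR-99 on Exiqon has a limit. Its reference channel stood only 18.3 to 84.8 intensity units above local background, and the background correction added an offset of 50 to each channel. What part this had in its rise was not tested. In whole embryos a rise in the number of cells that hold a miRNA and a rise in its level per cell cannot be told apart.

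Agilent levels are the log2 of the spot intensity over the array's 75th percentile of probes detected on all arrays, and Exiqon levels are the log2 ratio of the sample (Hy3) over a reference pool (Hy5). A change was counted as passing when limma's moderated test, adjusted by Benjamini and Hochberg's method over all tested names, gave a p under 0.05. In 60 against 36 hpf 5 of 5 members passed as higher on Exiqon and 4 of the 4 detected on all 12 arrays on Agilent, in TCDD and in DMSO embryos alike. The remaining member, miR-125a, entered the Agilent test only through its 60 hpf level and is not counted. The background was high: of all tested names, 50% in TCDD embryos and 45.5% in DMSO embryos passed as higher on Agilent (134 names), and 48.2% in TCDD embryos and 47.8% in DMSO embryos on Exiqon (224 names). Of the 109 names detected on all 12 Agilent arrays, 49.5% in TCDD embryos and 45.9% in DMSO embryos passed as higher. For all 5 members on Exiqon and the 4 on Agilent every 60 hpf array lay above every 36 hpf array of the same treatment. That held for 51.5% of all names in TCDD embryos and 45.5% in DMSO embryos on Agilent, and for 51.5% and 57.3% of the names with a value on all 12 arrays on Exiqon. On Agilent the changes of the 4 members ran from a log2 of 0.98 to 1.98 in TCDD embryos and from 0.93 to 1.94 in DMSO embryos. The median over all tested names there was 0.20 and 0.10. On Exiqon the members' median change was 1.45 in TCDD embryos and 1.46 in DMSO embryos, beside 0.13 and 0.11 over all names.

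The miR-100 probe gave Agilent levels of -0.11, -0.42 and -0.16 in TCDD embryos at 60 hpf, -0.28, -0.21 and -0.33 in DMSO embryos at 60 hpf, -1.18, -1.24 and -1.20 in TCDD embryos at 36 hpf, and -1.35, -1.21 and -1.05 in DMSO embryos at 36 hpf. The stages did not overlap, the treatments did, and replicate 2 of the TCDD embryos at 60 hpf was the low array of its group. The log2 change was 0.98 ± 0.09 in TCDD embryos (SE, n = 3 arrays a group, adjusted p = 7.72e-07) and 0.93 ± 0.09 in DMSO embryos (adjusted p = 1.28e-06), the smallest rise among the members on this array type. On Exiqon the miR-100 ratios were -0.04, 0.25 and -0.01 in TCDD embryos at 60 hpf, 0.22, 0.17 and 0.24 in DMSO embryos at 60 hpf, -0.55, -0.56 and -0.72 in TCDD embryos at 36 hpf, and -0.53, -0.50 and -0.52 in DMSO embryos at 36 hpf. Here replicate 2 of the TCDD embryos at 60 hpf was the high array of its group, and the ratio rose by 0.67 ± 0.07 in TCDD embryos and 0.73 ± 0.07 in DMSO embryos.

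For miR-99, the other member of that family, Agilent levels were -0.25, -0.56 and -0.25 in TCDD embryos at 60 hpf, -0.40, -0.36 and -0.30 in DMSO embryos at 60 hpf, -1.89, -1.92 and -1.80 in TCDD embryos at 36 hpf, and -1.98, -1.82 and -1.68 in DMSO embryos at 36 hpf. The same array, replicate 2 of the TCDD embryos at 60 hpf, was again low, by a log2 of -0.31 against the mean of the other two, compared with -0.28 for miR-100 and -0.01 for miR-125b. The change was 1.52 ± 0.09 in TCDD embryos (adjusted p = 2.13e-08) and 1.47 ± 0.09 in DMSO embryos (adjusted p = 3.16e-08). On Exiqon miR-99 gave ratios of 0.11, 0.28 and 0.14 in TCDD embryos at 60 hpf, 0.29, 0.18 and 0.27 in DMSO embryos at 60 hpf, -0.30, -0.31 and -0.43 in TCDD embryos at 36 hpf, and -0.25, -0.31 and -0.26 in DMSO embryos at 36 hpf, a rise of 0.52 ± 0.05 under each treatment. This was the dimmest member there: its sample channel stood 107 to 143 intensity units above local background at 60 hpf and 49.3 to 72.8 at 36 hpf, and its reference channel 18.3 to 72.0 at 60 hpf and 21.1 to 84.8 at 36 hpf. Of its 48 Exiqon spots 9 were left out for their flags, and 1 array, replicate 3 of the DMSO embryos at 60 hpf, kept only 1 of 4. The background correction added an offset of 50 to each channel, and its part in the miR-99 change was not tested.

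In the miR-125 family, miR-125b has 3 positions on the map, as many as miR-99. Its Agilent levels were 1.33, 1.28 and 1.26 in TCDD embryos at 60 hpf, 1.26, 1.28 and 1.31 in DMSO embryos at 60 hpf, -0.67, -0.72 and -0.69 in TCDD embryos at 36 hpf, and -0.63, -0.69 and -0.64 in DMSO embryos at 36 hpf. Arrays of a stage lay within a narrow band and the 2 bands were far apart. The change was 1.98 ± 0.04 in TCDD embryos (adjusted p = 2.77e-12) and 1.94 ± 0.04 in DMSO embryos (adjusted p = 2.81e-12). On Exiqon the ratios were 0.33, 0.46 and 0.33 in TCDD embryos at 60 hpf, 0.48, 0.43 and 0.51 in DMSO embryos at 60 hpf, -1.12, -1.05 and -1.17 in TCDD embryos at 36 hpf, and -1.02, -1.01 and -1.0004 in DMSO embryos at 36 hpf. The rise was 1.49 ± 0.04 and 1.48 ± 0.04 in TCDD and DMSO embryos. All 3 TCDD arrays at 36 hpf lay below the 3 DMSO arrays, where 25.2% of the names with a value on every array did not overlap in either direction. Those 3 DMSO arrays carry another scan number than all other arrays, so scan and treatment cannot be told apart there.

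The single-locus member miR-125c had Agilent levels of -1.56, -1.68 and -1.60 in TCDD embryos at 60 hpf, -1.63, -1.59 and -1.64 in DMSO embryos at 60 hpf, -2.94, -2.90 and -3.04 in TCDD embryos at 36 hpf, and -3.07, -2.97 and -2.82 in DMSO embryos at 36 hpf. Its change was 1.35 ± 0.07 in TCDD embryos (adjusted p = 2.50e-09) and 1.33 ± 0.07 in DMSO embryos (adjusted p = 3.14e-09). On Exiqon its ratios were 0.36, 0.43 and 0.28 in TCDD embryos at 60 hpf, 0.46, 0.43 and 0.46 in DMSO embryos at 60 hpf, -1.07, -1.07 and -1.15 in TCDD embryos at 36 hpf, and -0.99, -1.05 and -0.998 in DMSO embryos at 36 hpf. These lay close to the miR-125b ratios on every array, and the rise was 1.45 ± 0.04 in TCDD embryos and 1.46 ± 0.04 in DMSO embryos. A further Exiqon probe is named for both miR-125b and miR-125c. It rose by 1.35 ± 0.06 in TCDD embryos and 1.33 ± 0.06 in DMSO embryos, with 16 of its 48 spots left out, among them all 4 of replicate 2 of the DMSO embryos at 36 hpf, which therefore did not enter its fit.

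The brightest miR-125a probe was well above background on all 6 Agilent arrays of 60 hpf and on none of the 6 of 36 hpf, where its level is the floor of -5.19 on every array. At 60 hpf it gave -2.83, -2.85 and -2.80 in TCDD embryos, and -3.04, -2.57 and -2.91 in DMSO embryos, in which replicate 2 was high. Against the detection limit of the 36 hpf arrays this was at least 4.93-fold higher in TCDD embryos (mean of -2.83 at 60 hpf, mean limit of -5.13 at 36 hpf). In DMSO embryos it was at least 4.79-fold higher (-2.84 and -5.10). Both bounds hold for the scaling used here and were not worked out under another scaling. No p is given, because the 36 hpf values are the floor and have no spread. On Exiqon, where it was above local background on all 12 arrays, miR-125a had ratios of 0.50, 0.57 and 0.51 in TCDD embryos at 60 hpf, 0.62, 0.50 and 0.46 in DMSO embryos at 60 hpf, -1.44, -1.40 and -1.48 in TCDD embryos at 36 hpf, and -1.31, -1.44 and -1.36 in DMSO embryos at 36 hpf. The rise of 1.96 ± 0.05 in TCDD embryos (adjusted p = 8.89e-13) and 1.90 ± 0.05 in DMSO embryos (adjusted p = 1.33e-12) had rank 4 from the top among 224 names under each treatment.

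**Figure D2:**
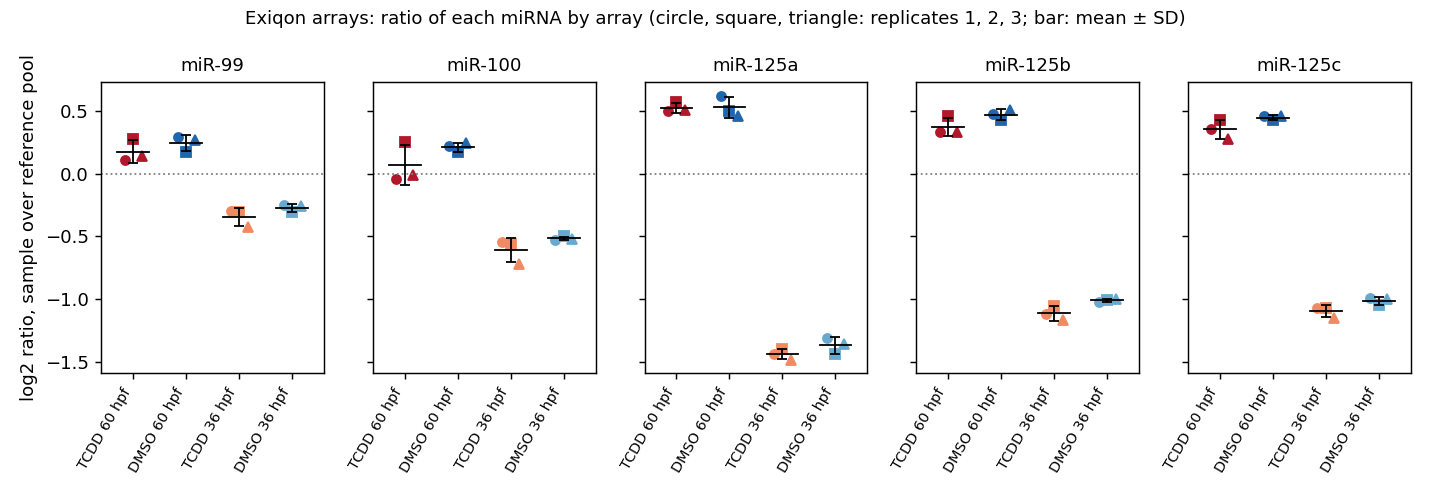
The plot of Exiqon ratios by array gives the log2 ratio of sample over reference pool for each miRNA on 12 arrays, with the mean and SD of each group of 3. The 60 hpf arrays lie above the 36 hpf arrays in every panel, and in the miR-100 panel replicates 1 and 3 of the TCDD embryos at 60 hpf (-0.04 and -0.01) lie below the DMSO arrays of that stage.

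**Figure D3:**
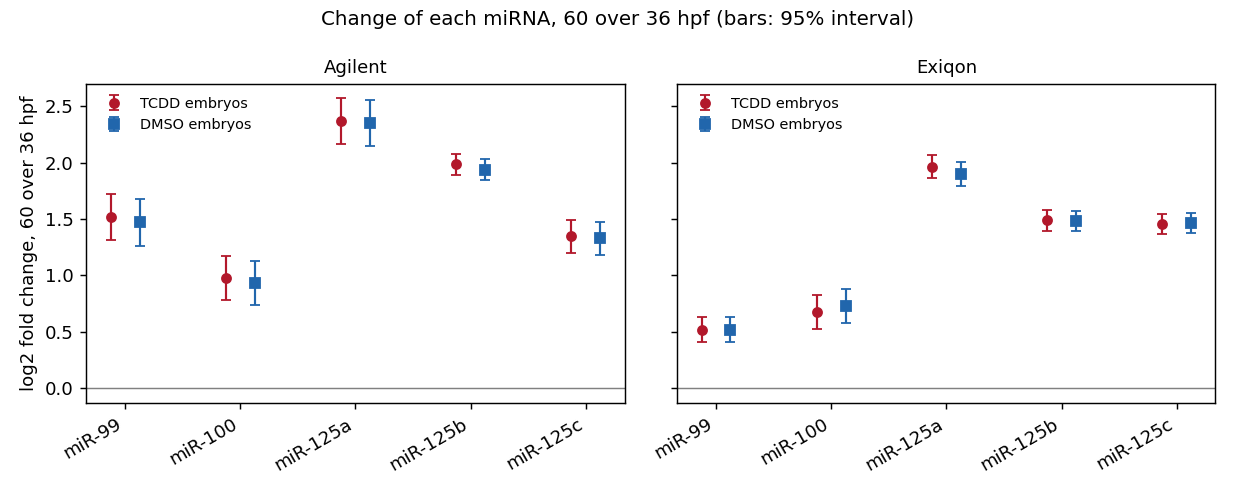
The plot of stage changes gives the log2 fold change of 60 over 36 hpf with its 95% interval for TCDD and DMSO embryos on each array type. TCDD and DMSO points nearly coincide, and miR-125a is highest on both. On Agilent the miR-125a points take the floor as the 36 hpf level and lie above its bounds (2.30 in TCDD and 2.26 in DMSO embryos). Their intervals rest on 36 hpf values without spread and are not read. The miR-99 points are above those of miR-100 on Agilent (1.47 and 0.93 in DMSO embryos) and below them on Exiqon (0.52 and 0.73).

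The other Agilent probes that were above background on all 12 arrays also rose, by unequal amounts. The 18-base probe of miR-99 rose by 1.48 in TCDD embryos and 1.502 in DMSO embryos, and that of miR-100 by 0.69 and 0.82. The 16-base probe of miR-125b rose by 2.17 in TCDD embryos and 1.98 in DMSO embryos, and the 16-base probe of miR-125c by 1.40 and 1.38. The 15-base probes of miR-125a and miR-125c were not well above background on any 36 hpf array, with levels at or within 0.01 of the floor, so no change is given for them.

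Whether 2 members changed unequally was tested on their difference within each array, which leaves out a scaling factor common to the array. It does not leave out the loess normalization of Exiqon, which depends on intensity. The test was an exact permutation test of the stage labels within each treatment (400 arrangements, two-sided, smallest possible p 0.005). Its p-values were adjusted over the 10 pairs of an array type. On Agilent the 6 pairs without miR-125a all passed. The change of miR-125b exceeded that of miR-125c by a log2 of 0.62, that of miR-99 by 0.47 and that of miR-100 by 1.01 (adjusted p = 0.00556 each). The change of miR-99 exceeded that of miR-100 by 0.54 (adjusted p = 0.00556) and that of miR-125c by 0.15 (adjusted p = 0.03), and miR-125c exceeded miR-100 by 0.38 (adjusted p = 0.00556). These sizes depended on the processing: over 10 settings the excess of miR-125b over miR-125c ran from 0.64 to 1.04 in TCDD embryos and from 0.60 to 1.03 in DMSO embryos, and that of miR-99 over miR-125c from 0.07 to 0.40 and from 0.12 to 0.30. The difference of miR-100 minus miR-125c ran from -0.71 to -0.07 in TCDD embryos and from -0.56 to -0.20 in DMSO embryos. The permutation test was not repeated under these settings. The pairs with miR-125a are not given because its 36 hpf level is only a bound.

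On Exiqon 9 of 10 pairs passed, each at the adjusted p of 0.00556. The change of miR-125a exceeded that of miR-125b by 0.45 and that of miR-125c by 0.47, and all 3 of that family exceeded miR-99 and miR-100 by 0.76 to 1.41. Over 12 settings miR-99 minus miR-125b ran from -1.41 to -0.71 in TCDD embryos and from -1.33 to -0.54 in DMSO embryos, and miR-99 minus miR-125c from -1.39 to -0.65 and from -1.32 to -0.55. The pair that did not pass was miR-125b and miR-125c, whose changes differed by 0.03 (exact p = 0.165, adjusted p = 0.165), where Agilent gave 0.62. Within an Exiqon array miR-125b minus miR-125c was 0.02 ± 0.03 at 60 hpf and -0.01 ± 0.03 at 36 hpf (SD, 6 arrays each), while within an Agilent array it was 2.90 ± 0.04 at 60 hpf and 2.28 ± 0.10 at 36 hpf. The Exiqon levels are ratios to the reference pool and the Agilent levels are probe intensities. Only the change of this difference with stage can therefore be compared between the array types. Whether either probe of this pair, whose Agilent probes differ by the single base A5G, also bound the other miRNA was not tested.

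The order of miR-99 and miR-100 was opposite on the array types: on Exiqon miR-99 rose less than miR-100 by 0.18 (a difference of -0.18, adjusted p = 0.00556). On Agilent the difference stayed above 0 under all 10 settings tried, between 0.47 and 0.79 in TCDD embryos and between 0.48 and 0.68 in DMSO embryos. On Exiqon it ran from -0.53 to 0.16 in TCDD embryos and from -0.53 to 0.11 in DMSO embryos over 12 settings. With the authors' deposited table of log2 ratios the rise of miR-99 was 0.80 in TCDD embryos and 0.72 in DMSO embryos, against 0.73 and 0.74 for miR-100. The part of the low intensity of miR-99, and of the offset of 50, in its Exiqon change was not tested. Its Exiqon order against every other member has this limit.

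**Figure D4:**
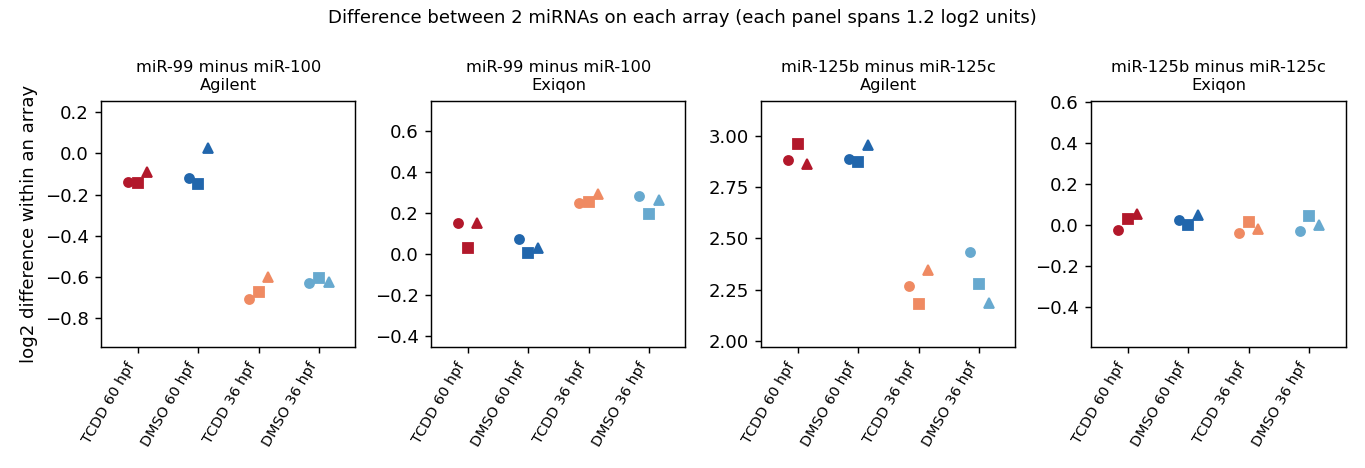
The plot of differences within an array gives miR-99 minus miR-100 and miR-125b minus miR-125c in log2 units on each array, by group. On Agilent both differences are higher on every 60 hpf array than on every 36 hpf array of the same treatment, while on Exiqon miR-99 minus miR-100 is lower at 60 hpf and miR-125b minus miR-125c stays near 0.

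TCDD moved none of the 5 miRNAs past the threshold at either stage on either array type. On Agilent 0 of 5 members passed at 60 hpf, where 4.48% of all tested names did, and 0 of the 4 members measured there passed at 36 hpf, where 0.746% did, and no member had an unadjusted p under 0.05 in limma's test. The Agilent log2 changes at 60 hpf were 0.00 for miR-99, 0.04 for miR-100, 0.02 for miR-125a, 0.01 for miR-125b and 0.01 for miR-125c, all with adjusted p of at least 0.951. At 36 hpf they were -0.04 for miR-99, 0.00 for miR-100, -0.04 for miR-125b and -0.01 for miR-125c. The 95% intervals all lay between -0.20 and 0.24 at 60 hpf and between -0.25 and 0.19 at 36 hpf. The narrowest, for miR-125b, ran from -0.09 to 0.10 at 60 hpf and from -0.13 to 0.05 at 36 hpf. The TCDD and DMSO arrays overlapped for all 5 members at 60 hpf and for the 4 measured at 36 hpf. Of all names, 11.9% at 60 hpf and 17.2% at 36 hpf did not overlap. For each member, changes inside its own interval remain possible with 3 arrays a group. The interval of miR-125a at 60 hpf is too narrow, because its fit includes 36 hpf groups at the floor with an SD of 0. The arrays lay on 2 slides, of which the first held replicate 1 of every group: there the changes were 0.07 to 0.21 at 60 hpf and -0.04 to 0.17 at 36 hpf, and on the second, with replicates 2 and 3, they were -0.08 to -0.02 at 60 hpf and -0.11 to -0.04 at 36 hpf, so the direction was not shared by the slides except for miR-125b at 36 hpf.

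On Exiqon all 5 changes lay below 0 at both stages, as did those of 108 of all 224 names at 60 hpf and 130 at 36 hpf. None of the members passed, where 6.25% of all names passed at 60 hpf and 0.446% at 36 hpf. At 60 hpf the changes were -0.14 ± 0.07 for miR-100 (adjusted p = 0.200), -0.10 ± 0.04 for miR-125b (adjusted p = 0.177), -0.09 ± 0.04 for miR-125c (adjusted p = 0.177), -0.07 ± 0.05 for miR-99 and -0.0037 ± 0.05 for miR-125a. At 36 hpf they were -0.09 for miR-100, -0.10 for miR-125b, -0.08 for miR-125c, -0.07 for miR-99 and -0.07 for miR-125a. The 95% intervals lay between -0.29 and 0.10 at 60 hpf and between -0.24 and 0.06 at 36 hpf, the widest at both stages being that of miR-100. The unadjusted p was under 0.05 for 2 members, miR-125b and miR-125c, at 60 hpf, where that held for 26.3% of all names, and for 1, miR-125b (-0.10 ± 0.04, adjusted p = 0.457), at 36 hpf, where it held for 8.04%. At 60 hpf the TCDD and DMSO arrays overlapped for all 5 members (25.7% of the 206 names with a value on every array did not overlap). At 36 hpf all 3 TCDD arrays lay below all 3 DMSO arrays for miR-100, miR-125b and miR-125c, 3 of 5 members. Of those 206 names 25.2% did not overlap in either direction there.

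The arrays behind these Exiqon values differ in handling. Replicates 1 and 3 of the TCDD embryos at 60 hpf and replicate 3 of those at 36 hpf were image-analysed apart from the other 9, on another day. Per the file headers they had program version 7.0.0 in place of 8.0.1. Which day came first was not established. On the 9 arrays that shared a day the TCDD change at 60 hpf was 0.04 for miR-100, -0.01 for miR-125b, -0.02 for miR-125c, 0.03 for miR-99 and 0.04 for miR-125a. There replicate 2 was the only TCDD array of 60 hpf, and it was the high array of its group for every member. Without replicate 2 of the TCDD embryos at 60 hpf, which leaves only arrays of the other day on the TCDD side, miR-100 (-0.24, adjusted p = 0.00796), miR-125b (-0.14, adjusted p = 0.0304) and miR-125c (-0.13, adjusted p = 0.0407) passed. In that fit 22.1% of 222 names passed in either direction and 11.7% as lower. At 36 hpf the values on the 9 arrays that shared a day ran from -0.07 for miR-125b to -0.03 for miR-99. The 3 DMSO arrays of that stage carry another scan number than all other arrays, so the scan cannot be told apart from the treatment there. That scan is shared by no 60 hpf array either, so the stage change in DMSO embryos on Exiqon has the same limit, which the stage change in TCDD embryos does not have.

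**Figure D5:**
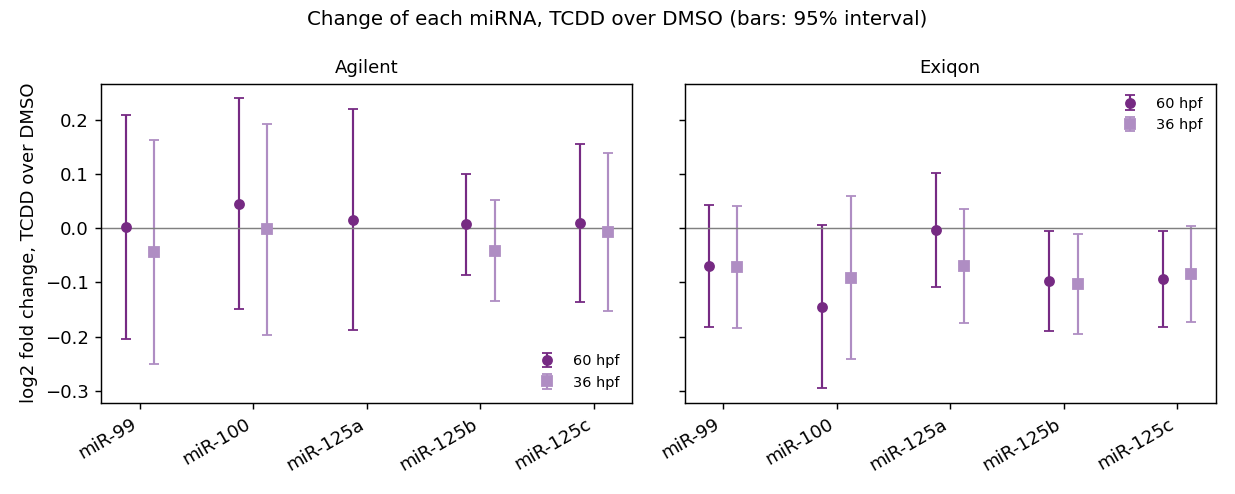
The plot of TCDD effects gives the log2 fold change of TCDD over DMSO with its 95% interval at 60 and 36 hpf on each array type (miR-125a at 36 hpf on Agilent is left out because both groups were below background). The Agilent points lie within 0.05 of 0, and the Exiqon points lie between -0.14 and 0.

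A difference of the TCDD effect between the stages was not detected for any member. In the test of that difference 0 of 5 members passed on Exiqon and 0 of the 4 that were measured at both stages on Agilent, where 1.49% of names on Agilent and 2.68% on Exiqon did, and no member had an unadjusted p under 0.05 in limma's test. The lowest adjusted p was 0.891 for miR-125b on Agilent and 0.677 for miR-125a on Exiqon.

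The let-7 miRNAs of the shared loci also rose with stage. On Agilent let-7a, detected on all 12 arrays, rose by a log2 of 2.92 ± 0.12 in TCDD embryos and 2.96 ± 0.12 in DMSO embryos, beside 0.98 and 0.93 for miR-100 and 1.98 and 1.94 for miR-125b. The map also places let-7a on chromosomes 4, 6 and 11 and on a scaffold, with no member beside it. Its rise therefore cannot be assigned to the shared loci. The map places let-7c beside miR-99 and miR-125c on chromosome 15 and beside miR-99 and miR-125b on chromosome 21. An array cannot tell these loci apart. On Agilent let-7c rose by 2.58 ± 0.16 in TCDD embryos and 2.62 ± 0.16 in DMSO embryos. Its probe was detected on only 3 of the 6 arrays of 36 hpf, where it lay close to the floor. The size of the change therefore depends on the floor. The partner of miR-125a, let-7d, was like it below background at 36 hpf on Agilent and was detected on 6 of 12 arrays. On Exiqon let-7a rose by 2.04 ± 0.04 in TCDD embryos and 1.96 ± 0.04 in DMSO embryos, let-7c by 1.36 ± 0.03 and 1.28 ± 0.03, and let-7d by 1.43 ± 0.04 and 1.51 ± 0.04. Whether these changes differ from those of the partners in the same locus was not tested.

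Of 10 let-7 guide strands, 3 were detected on all 12 Agilent arrays, and these 3 passed as higher at 60 hpf under each treatment: let-7a, let-7f (2.87 in TCDD embryos and 2.97 in DMSO embryos) and let-7g (2.08 and 2.16). A further 3, let-7b, let-7c and let-7d, entered the test only through their 60 hpf levels and are not counted. Among all names detected on every Agilent array, 49.5% passed as higher in TCDD embryos and 45.9% in DMSO embryos. On Exiqon 6 of 10 passed as higher in TCDD embryos and 7 of 10 in DMSO embryos, where 48.2% and 47.8% of all tested names did. The largest change was that of let-7a. The changes closest to 0 were 0.0023 for let-7b in TCDD embryos and 0.06 for let-7i in DMSO embryos. For let-7f the lowest 60 hpf value minus the highest 36 hpf value on Exiqon was only -0.07 in TCDD embryos and 0.04 in DMSO embryos. For let-7g it was 1.49 and 1.57. Of the 4 miR-10 guide strands, the Hox-cluster relatives of miR-99 and miR-100, 1 passed as higher and 2 as lower under each treatment on Agilent. Among all 134 names there, 67 passed as higher and 42 as lower in TCDD embryos, and 61 and 44 in DMSO embryos. There miR-10d had the largest change, 0.44 in TCDD embryos and 0.42 in DMSO embryos, and those closest to 0 were -0.14 for miR-10c in TCDD embryos and -0.09 for miR-10b in DMSO embryos. On Exiqon 2 miR-10 strands passed as higher and 1 as lower in TCDD embryos, and 1 as higher in DMSO embryos, with miR-10d at 0.39 and 0.35. Among all 224 names there, 108 passed as higher and 36 as lower in TCDD embryos, and 107 and 36 in DMSO embryos. No let-7 or miR-10 strand passed the TCDD test at either stage on either array type.

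Likeness was measured as the root mean square difference of 12 mean-centred log2 values between a member and every other tested name of an array type with a value on all 12 arrays. It is a description over arrays that share their samples. On Agilent the nearest names outside the members were miR-96 for miR-99 (0.07), miR-107 for miR-100 (0.08), miR-181a for miR-125b (0.07) and miR-96 for miR-125c (0.09). The next names detected on all 12 arrays were miR-7a for miR-99 (0.08) and miR-218a for miR-100 (0.09). They were miR-124 for miR-125b (0.14) and miR-192 for miR-125c (0.09). None is given for miR-125a, whose 36 hpf values are the floor. On Exiqon the nearest names outside the members were miR-15a for miR-99 (0.04), miR-217 for miR-100 (0.05), let-7a for miR-125a (0.06), miR-182 for miR-125b (0.06) and miR-183 for miR-125c (0.05). None of the 4 members compared on both array types had the same nearest name outside the members on each.

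As for the arrays as a whole, 191 to 277 of 490 Agilent probes and 249 to 255 of 255 zebrafish Exiqon probes were above background per array. Agilent arrays of a group correlated at 0.991 to 0.999 across miRNAs and arrays of different stages at 0.867 to 0.910. Exiqon ratios correlated at 0.905 to 0.990 within groups and at -0.631 to -0.525 across stages. Ratios are read as sample over reference, as the dyes in the labels give them: the reference is described as pooled from individual samples, and against such a pool the stages can oppose each other. Of 16 miRNAs that mark muscle, nervous system, skin, blood, liver, eye and early embryo, 16 were detected on all 12 Exiqon arrays and 14 on all 12 Agilent arrays, where the blood miRNA miR-144 and the liver miRNA miR-122 were the exceptions.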

How the data were processed

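The Agilent intensity values are processed, background-subtracted signals deposited by the authors from Feature Extraction 9.5, per the file headers and the submitters' processing notes; the deposited intensity table equals them (largest difference 0). Spots marked as outliers (3.05% to 6.39%) were left out. Signals were scaled to the 75th percentile of the 186 probes found on every array, floored at 0.0273 (log2 -5.19) and averaged as log2 over spots. The brightest probe stood for a name, tested if detected on all 3 arrays of a group. The Exiqon files hold intensity and local background per channel, and spot flags (other values), per the file headers. Flagged spots (4.51% to 15.7%) were left out, the background was corrected with normexp (offset 50), arrays were normalized by global loess, and log2 ratios were averaged over 4 spots. The authors' deposited log2 table served as an alternative; it correlated with these ratios at 0.857 to 0.972, its array medians were -0.13 to 0.26, and the sources used here do not name its normalization. One limma 3.58.1 model (R 4.3.3) of 4 group means was fitted per array type, two-sided. The script was tested on simulated data. Permutations and tables used Python 3.11.15, and probes were aligned with Biopython 1.88. The miRNAs named are the members, the let-7 and miR-10 lists (largest and smallest change, the let-7 of each locus and, on Agilent, those detected on every array) and the nearest names; miR-144 and miR-122 were named after their values were seen. Same-numbered Agilent samples deviated together with a correlation above 0.1 in every pair only for TCDD and DMSO embryos at 36 hpf (0.27, 0.25 and 0.22). In the other comparisons the correlations ran from -0.53 to 0.61. Replicate 1 of every group shares a slide. Members and lists were chosen with earlier results of these data known. Biological replicates are so called by the study; p-values measure the spread between these samples, and 3 arrays a group limit the precision.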

Additional observations from a re-analysis of the deposited data

How the results depend on the processing

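The stage changes kept their direction under all alternatives run, and all members passed under each treatment (miR-125a on Agilent is set aside, since its 36 hpf level is the floor), with these exceptions. With the Exiqon sample channel alone, quantile normalized, 3 of 5 passed in TCDD embryos (miR-100 at 0.13 and miR-99 at 0.29 did not) and 4 of 5 in DMSO embryos (miR-100 at 0.26 did not). The second brightest Agilent probe of each name is an alternative chosen after seeing the data; that of miR-125a is at the floor at 36 hpf and gives no stage change. Scaling Agilent arrays over all probes moved the median change of all names in DMSO embryos to -0.18, against 0.10, and lowered the rise of miR-100 to 0.60, and 45 names passed as higher and 66 as lower, against 61 and 44; quantile normalization gave 47 and 63. In TCDD embryos these scalings gave 48 and 62, and 45 and 61, against 67 and 42. Median centring of Exiqon arrays moved that median to 0.31, against 0.11, with 124 names higher and 10 lower, against 107 and 36; in TCDD embryos it gave 153 and 7, against 108 and 36. The sample channel alone gave 35 higher and 59 lower in TCDD embryos, and 51 and 28 in DMSO embryos.

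The number of members past the threshold for TCDD at 60 hpf on Exiqon ran from 0 to 3 over the fits that leave out 1 replicate, with 3 only without replicate 2 of the TCDD embryos, where 22.1% of all names passed, against 6.25% with all arrays; it was 0 in the other comparisons of TCDD with DMSO. Directions of TCDD effects, none of which passed, turned as follows on Agilent at 36 hpf: miR-100 0.0031 and miR-125c 0.0259 with quantile normalization, 0.0226 and 0.008 with the mean of all detected probes, and 0.0475 and 0.035 with the second brightest probe, which gave miR-99 0.0335. At 60 hpf they were -0.0561 for miR-125a, -0.0241 for miR-125c and -0.0019 for miR-99 with normexp, -0.0949 for miR-125a, -0.0238 for miR-125b and -0.0047 for miR-125c with quantile normalization, -0.0196 for miR-100 and -0.0497 for miR-125a with the mean of probes, and -0.0842 and -0.1147 with the second brightest. On Exiqon at 60 hpf they were 0.0545 for miR-125c with the sample channel alone, and 0.0021 for miR-100, 0.0421 for miR-125a and 0.0222 for miR-99 with the analysis day as a block. On the 9 arrays that shared a day alone they were 0.0393 for miR-100, 0.0435 for miR-125a and 0.0315 for miR-99. The TCDD side at 60 hpf was then replicate 2 alone. Leaving out 1 replicate, the Agilent values at 36 hpf ran from -0.074 to 0.0729 for miR-100, from -0.0652 to 0.0579 for miR-125c and from -0.1213 to 0.03 for miR-99. At 60 hpf they ran from -0.0156 to 0.1396 for miR-100, from -0.0849 to 0.1507 for miR-125a, from -0.0105 to 0.0204 for miR-125b, from -0.0169 to 0.0438 for miR-125c and from -0.0503 to 0.106 for miR-99, and on Exiqon from -0.0363 to 0.0435 for miR-125a. The cause was not tested.

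Of 18 same-numbered pairs of samples 11 on Agilent deviated together with a correlation above 0.1 (lowest -0.53), among them all 3 of TCDD and DMSO embryos at 36 hpf, and 4 of 18 on Exiqon. The replicate block changed no call of a member: 5 of 5 still passed for stage on Exiqon, and 0 for TCDD on each array type. Agilent members near the floor at 36 hpf (miR-125a) are limited by signal over background, as is miR-99 on Exiqon.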
